A study of Mus musculus with 6 samples.

Results

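The actins were examined in mouse tibialis anterior, the muscle at the front of the shin, through the 6 genes Actc1, Acta1, Acta2, Actg2, Actb and Actg1. They were found by gene symbol in the platform annotation, which gave 8 probe sets out of 12422 on the array, and 0 further probe sets paired an actin with other genes. The Affymetrix control probe sets for beta-actin, 6 in number, were left out of the 8. The family was chosen by earlier results on the same arrays, in which Actc1 was among the probe sets with the lowest eccentric against control difference. Its values in that comparison, and against the isometric pool, which uses the same eccentric arrays, are therefore a description.

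The eccentric group was the muscle 48 h after 50 contractions during which it was lengthened, and the isometric group the muscle 48 h after 50 contractions at held length. The control group was the muscle of the opposite legs, which received only the contractions needed to measure torque, and the labels do not say which exercised animals those legs came from. Each group was 1 pool of RNA from 4 animals, split onto 2 arrays lettered A and B. A group is thus 1 biological sample, the spread between A and B covers labelling and hybridisation but not animals, and no p-value was computed. The labels give no strain, sex or age.

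Actin is the filament on which myosin pulls. In the muscle fibre the thin filaments are built from alpha-skeletal actin (Acta1) and, mainly in the heart and in developing skeletal muscle, alpha-cardiac actin (Actc1). Smooth muscle uses alpha-actin (Acta2) in vessels and gamma-actin (Actg2) in the gut, while beta-actin (Actb) and gamma-cytoplasmic actin (Actg1) form the cytoskeleton of all cells, motile leukocytes among them. The actins are so alike in coding sequence that array probes for one can bind the transcript of another. Of the 8 probe sets, 3 carry the suffix _f_at, which marks probes shared by a sequence family, 1 carries _i_at, for a set short of unique probes, and 1 carries _s_at, for probes shared between transcripts. The other 3, for Acta1, Acta2 and Actg1, have no such mark.

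The arrays had medians of 187 to 197 and trimmed means of 500.3. Differences were taken on log2 signals after values under 120.8, the 40th percentile of all values, were raised to it. A probe set was called higher or lower when its pool means differed by at least 2-fold and each of the 4 cross-pool array pairings ran in one direction. All 8 actin probe sets lay above 120.8 on all 6 arrays. The 100 brightest probe sets averaged 23746 on isometric B and 23492 on control A, against 18047 to 20205 on the other 4 arrays, so these 2 arrays stood apart at the bright end, where the striated muscle actins lie. The labelled tissue showed its fibre markers: Ckm, the muscle creatine kinase, averaged 14888 ± 2798 after eccentric contractions, 16688 ± 1491 after isometric contractions and 18002 ± 5071 in control muscle (SD, n = 2 arrays).

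Of the 6 actins, Actc1 alone passed the 2-fold rule. It was lower in the eccentric pool than in the control pool by 5.74-fold on one probe set and by 2.70-fold on the other, while its isometric and control signals overlapped. Acta1, its partner in the thin filament, did not pass in any comparison. To show the start regions of this pair of muscle actins, the 250 bases before each RefSeq transcription start are given 5′ to 3′, from the minus strand of GRCm38.p6. They lie at chr2:114052876-114053125 for Actc1 and chr8:123894776-123895025 for Acta1. The capitals mark exact matches to the CArG box, the site of serum response factor (SRF). The pattern, searched on both strands, was 2 C, then 6 letters each A or T, then 2 G.
Actc1: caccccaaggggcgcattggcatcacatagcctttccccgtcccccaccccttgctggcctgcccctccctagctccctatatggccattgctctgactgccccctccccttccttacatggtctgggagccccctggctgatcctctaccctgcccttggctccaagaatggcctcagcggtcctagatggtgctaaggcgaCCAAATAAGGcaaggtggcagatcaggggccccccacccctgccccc
Acta1: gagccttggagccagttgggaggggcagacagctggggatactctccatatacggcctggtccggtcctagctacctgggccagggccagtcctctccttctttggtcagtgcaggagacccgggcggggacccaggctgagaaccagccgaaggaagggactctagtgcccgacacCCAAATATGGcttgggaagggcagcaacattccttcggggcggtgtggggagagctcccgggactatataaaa

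The marked box began 47 bases before the RefSeq start of Actc1 and 73 bases before that of Acta1. Promoters of 4 of the 6 actins were in the RefSeq table, and Actg1 held 1 such box, 90 bases before its start. No exact match was found in the window of Acta2. Sites with 1 other letter were not counted, such as ccctatatgg in the windows of Acta2 and Actc1 and ccatatacgg in that of Acta1. Of 32851 promoters of the same length 1.47% held an exact match to the CArG box. The letters TATAAA, also searched on both strands, were found in the Acta1 window alone of the 4 (12.4% of all promoters), at -7 to -2 from the RefSeq start. Bases past the RefSeq starts were not searched, so a match there would be missed. CANNTG, which can overlap other motifs, was found in the windows of Acta1, Acta2 and Actg1 (66.2% of all). Whether the RefSeq starts are those used in this muscle was not tested. The arrays carry no measure of factor binding, so these matches describe the sequence only.

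The Actc1 probe set with the suffix _i_at had signals of 3783 and 3651 on the eccentric arrays, 20169 and 25664 on the isometric arrays and 21150 and 21513 on the control arrays. Both eccentric values lay far below the other 4, which overlapped. The log2 difference was -2.52 against the control pool, with the 4 array pairings between -2.56 and -2.48, and -2.61 against the isometric pool, with pairings between -2.81 and -2.41. The difference of the isometric from the control pool was 0.09, with pairings on both sides of 0. The value of -2.52 was the lowest of 7486 between the eccentric and control pools, and that of -2.61 the lowest of 7372 between the eccentric and isometric pools.

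The brighter Actc1 probe set, with the suffix _f_at, had 8288 and 8217 on the eccentric arrays, 21126 and 26106 on the isometric arrays and 22316 and 22314 on the control arrays. The order of the pools was the same as on the other probe set, with isometric and control again overlapping. The log2 difference was -1.44 against the control pool and -1.51 against the isometric pool, the 9th and 7th lowest of all tested, and that of the isometric from the control pool was 0.07. The SD between the 2 arrays was 50.0 in the eccentric pool, 3521 in the isometric pool and 1.3 in the control pool. Both probe sets had the same direction with different sizes, and the share of their signal that comes from other actins was not tested.

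Without control A and isometric B, the 2 arrays with the brighter upper end, the log2 differences of Actc1 on the _f_at probe set were -1.44 against the control pool and -1.36 against the isometric pool, and on the _i_at probe set -2.53 and -2.44. The 100 brightest probe sets had a median difference of -0.32 between the eccentric and control pools, and 0 of them were called higher and 2 lower, both of them those of Actc1. Between the eccentric and isometric pools their median was -0.21, and the same pair was called.

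**Figure D1:**
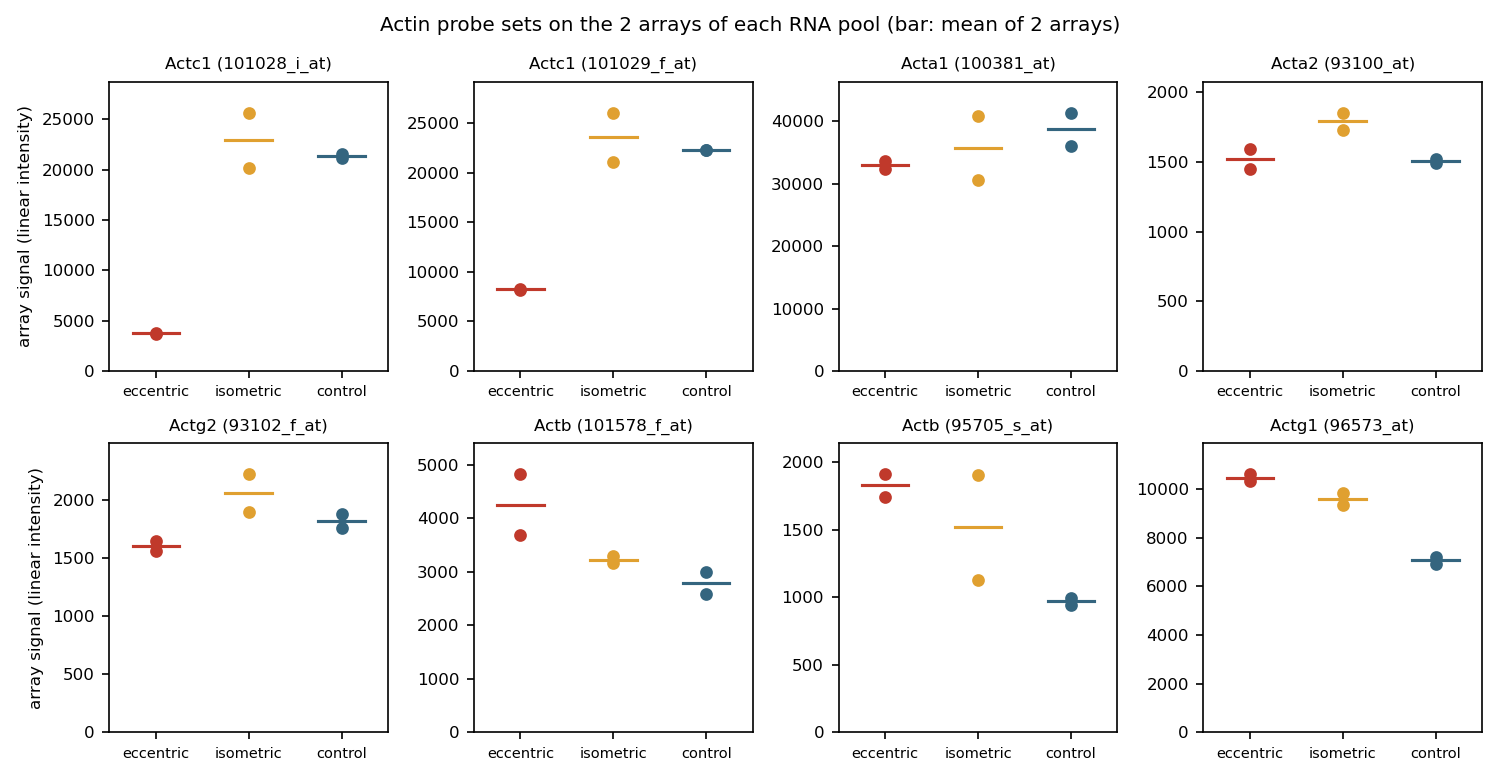
Deposited linear signal (vertical axis, from 0) of each actin probe set on the 2 arrays of the eccentric, isometric and control pools, with points for arrays and bars for their means. Both Actc1 probe sets lie lowest on the eccentric arrays, at 3651 to 3783 and 8217 to 8288, and Actg1 lies lowest on the control arrays, at 6923 to 7213.

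Acta1, which makes up the thin filament of the adult fibre, ranked between 5th and 10th brightest of the 12422 probe sets on every array. Its signals were 33679 and 32397 on the eccentric arrays, 30641 and 40930 on the isometric arrays and 41440 and 36078 on the control arrays. The eccentric and control arrays did not overlap, and isometric A lay below both eccentric arrays while isometric B lay between the control arrays. The log2 difference of the eccentric from the control pool was -0.23, which did not pass and which turned to 0.06 under quantile normalization, so its direction depends on the scaling. The isometric pool differed from the control pool by -0.13, also with the sign turned (0.01) under quantile normalization, and the eccentric from the isometric pool by -0.10, with 0.05 under that setting. The isometric A minus B difference was -0.42 on the log2 scale. The isometric against control value was 0.08 without isometric A and -0.34 without isometric B. Without isometric B the eccentric against isometric value turned to 0.11.

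The smooth muscle actins did not pass in any comparison. Acta2, of vessel walls, had 1591 and 1453 on the eccentric arrays, 1855 and 1728 on the isometric arrays and 1523 and 1492 on the control arrays. The isometric arrays were the highest and the other 4 overlapped, with log2 differences of 0.25 for isometric against control, 0.01 for eccentric against control (-0.05 to 0.08 over the alternatives) and -0.24 for eccentric against isometric. Actg2, of gut smooth muscle, had 1646 and 1561 on the eccentric arrays, 2221 and 1898 on the isometric arrays and 1755 and 1876 on the control arrays. The 3 pools did not overlap, with the isometric pool highest and the eccentric lowest, but the log2 differences of -0.18 (eccentric against control), 0.18 (isometric against control) and -0.36 (eccentric against isometric) did not pass. Without isometric A the isometric against control value was 0.06. Of 11 tested genes of the smooth muscle list 0 were called in any of the 3 comparisons. Tpm2 and Des were among the 11 and also stand on lists of muscle fibre genes. Of all genes tested, 5.16%, 0.915% and 1.71% were called higher and 1.04%, 0.305% and 0.658% lower. These shares are for eccentric against control, isometric against control and eccentric against isometric. Tagln, the smooth muscle protein transgelin, averaged 847 ± 35.3 on eccentric arrays, 1076 ± 161 on isometric arrays and 985 ± 111 on control arrays. The smooth muscle myosin Myh11 averaged 342 ± 7.8 on eccentric arrays, 469 ± 38.3 on isometric arrays and 463 ± 26.9 on control arrays.

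The cytoplasmic actins had their lowest signals in the control pool, by less than 2-fold. Actg1 had 10613 and 10325 on the eccentric arrays, 9342 and 9847 on the isometric arrays and 6923 and 7213 on the control arrays. The pools did not overlap, with a log2 difference of 0.57 for eccentric against control (pairings 0.52 to 0.62), 0.44 for isometric against control (0.37 to 0.51) and 0.13 for eccentric against isometric (0.07 to 0.18). The Actb probe set with the suffix _f_at had 3685 and 4823 on the eccentric arrays, 3158 and 3291 on the isometric arrays and 2589 and 2999 on the control arrays. Its pools followed the same order without overlap, with a log2 difference of 0.60 for eccentric against control (pairings 0.30 to 0.90), 0.21 for isometric against control (0.07 to 0.35) and 0.39 for eccentric against isometric (0.16 to 0.61). Over the alternatives, arrays left out included, these values ran from 0.40 to 0.79, 0.07 to 0.32 and 0.19 to 0.58, so their sizes depend on which arrays are kept. The Actb probe set with the suffix _s_at had 1747 and 1914 on the eccentric arrays, 1908 and 1132 on the isometric arrays and 946 and 997 on the control arrays. Here the isometric arrays disagreed, by 0.75 on the log2 scale, and overlapped the eccentric arrays, and the differences were 0.91 for eccentric against control, 0.60 for isometric against control and 0.32 for eccentric against isometric. The isometric against control value was 0.22 without isometric A and 0.97 without isometric B, and the eccentric against isometric value was 0.69 without isometric A and turned to -0.06 without isometric B. None of these differences passed the 2-fold rule.

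The 3′ to 5′ ratios of array controls, which are read for RNA quality, were set beside these values. The beta-actin controls had 18757 to 24149 at the 5′ end and 21012 to 29258 at the 3′ end. The Actb probe sets reached only 4823. The share of the beta-actin control signal that comes from other actins was not tested, so their ratio may not measure RNA quality alone. The log2 ratio of 3′ to 5′ signal of the beta-actin controls was 0.43 and 0.45 on the eccentric arrays, 0.14 and 0.28 on the isometric arrays and 0.01 and 0.07 on the control arrays. The same ratio of the Gapdh controls was 0.12 and 0.13 on the eccentric arrays, -0.07 and 0.27 on the isometric arrays and -0.05 and -0.07 on the control arrays. The beta-actin ratio thus had the order of the Actg1 signal without overlap, while for Gapdh isometric A lay below and isometric B above all other arrays. The part of RNA quality in the differences of the actins was not tested. Macrophage markers also ran highest in the eccentric pool and lowest in the control pool: the summed signal of the 23 on the array was 41395 and 41662 on the eccentric arrays, 25529 and 23280 on the isometric arrays and 15006 and 16226 on the control arrays, and 0 of them lay below the floor on all 6 arrays. In pooled whole muscle, a change in the number of cells of a type and in RNA per cell cannot be told apart, and the part of these cells in the Actb and Actg1 values was not tested.

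**Figure D2:**
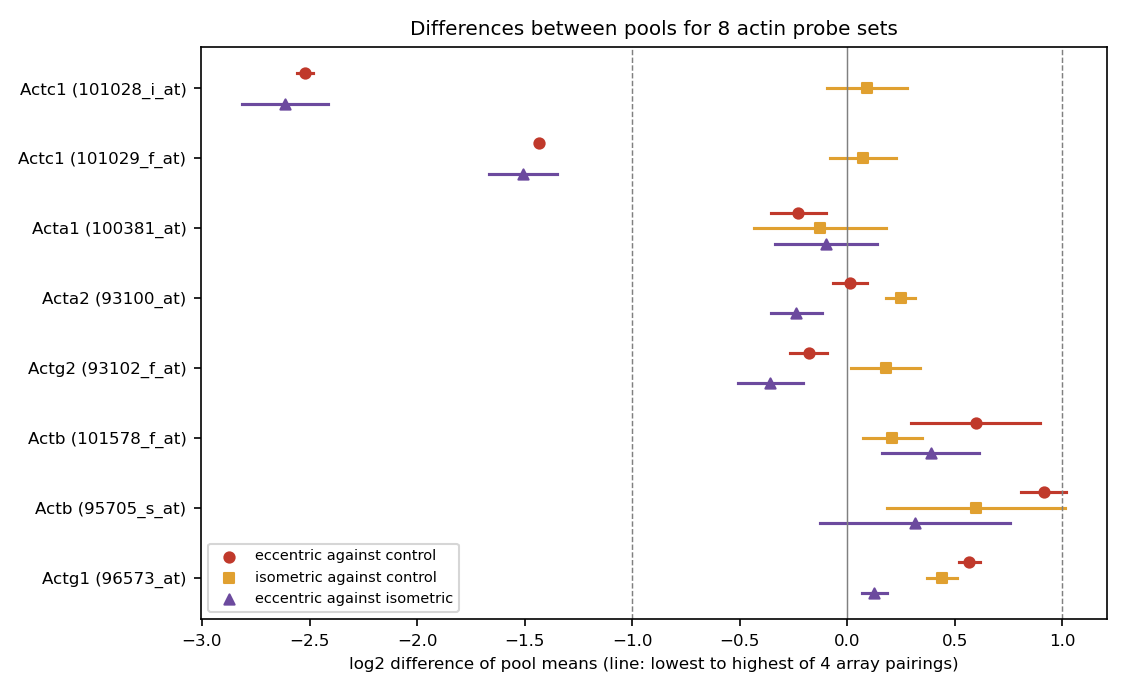
Log2 difference of pool means for each actin probe set (horizontal axis), with a point per comparison, a line for the lowest to highest of the 4 array pairings and dashed lines at 2-fold. Both Actc1 probe sets lie beyond -1 in the 2 comparisons that hold the eccentric pool, and the other probe sets lie between -0.36 and 0.91.

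Counted over the family, 2 of 8 probe sets were called lower and 0 higher between the eccentric and control pools, where 1.11% of all 7486 tested probe sets were called lower and 4.86% higher. The rule used this contrast, so the count is a description. Between the isometric and control pools 0 of 8 were called, where 0.409% of 7336 were called lower and 0.913% higher. Between the eccentric and isometric pools 2 were called lower and 0 higher, where 0.61% of 7372 were called lower and 1.64% higher. The pools did not overlap in 7 of 8 probe sets for eccentric against control, in 5 for isometric against control and in 6 for eccentric against isometric. This was so in 61.6%, 38.0% and 52.6% of all tested probe sets in those comparisons. The median log2 difference of the 8 was -0.08, 0.19 and -0.17 in the same order, beside -0.03, -0.01 and 0.02 over all tested. The comparisons share arrays, so these values are not independent of each other.

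**Figure D3:**
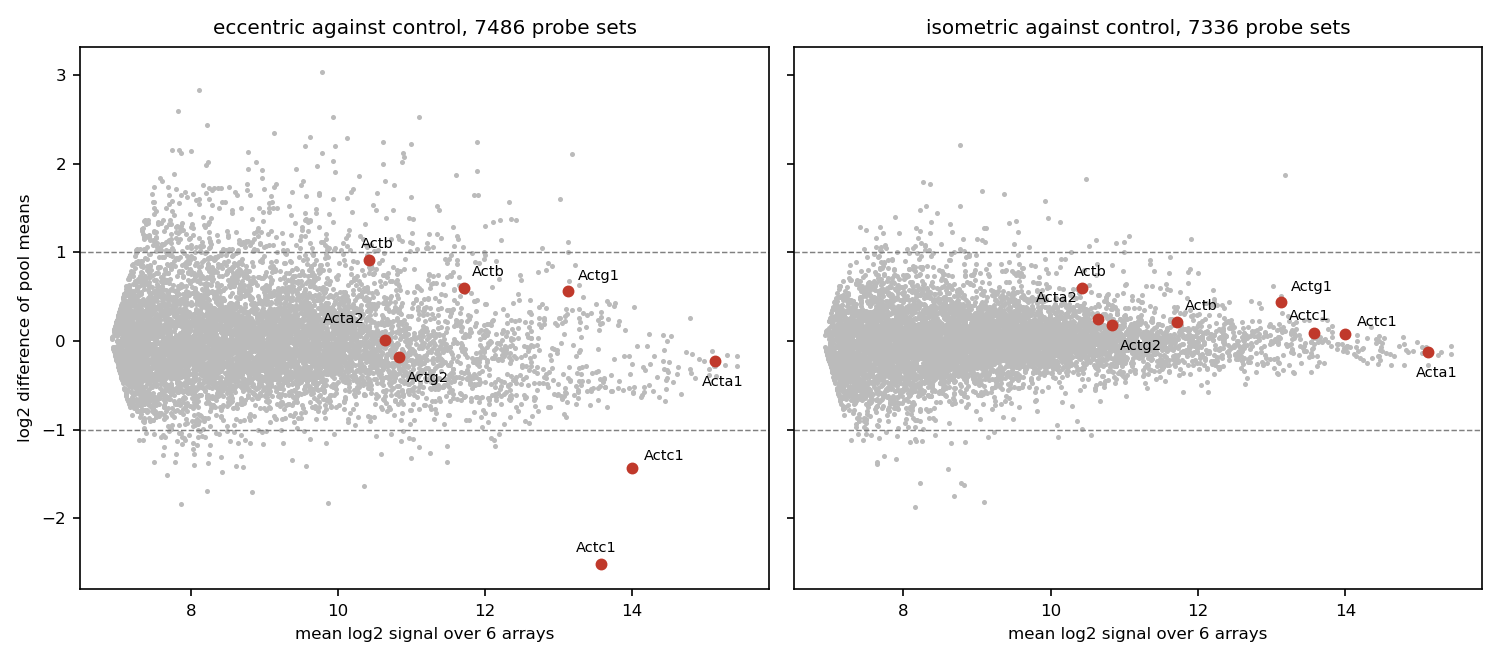
Log2 difference from the control pool (vertical axis) against the mean log2 signal over 6 arrays (horizontal axis) for all tested probe sets in grey, 7486 for the eccentric and 7336 for the isometric pool, with the actins in red and dashed lines at 2-fold. The Actc1 probe sets lie at -2.52 and -1.44 in the eccentric panel and at 0.09 and 0.07 in the isometric panel.

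Actc1 is the actin of the heart, so the markers of cardiac muscle were set beside it. Of the 13 on the array, 5 lay below the floor on all 6 arrays, and 0 of the 5 tested between the eccentric and control pools were called. Among all genes tested in that comparison 5.16% were called higher and 1.04% lower. The atrial light chain Myl7, the cardiac troponin Tnnt2 and the cardiac myosin Myh6 were among the 5 below the floor. The embryonic and atrial light chain Myl4 averaged 622 ± 39.7 on eccentric arrays, 644 ± 28.2 on isometric arrays and 711 ± 17.9 on control arrays, and was not called. The summed signal of the cardiac list was 2646 to 2782 on the eccentric arrays, 2988 to 3200 on the isometric arrays and 2935 to 2954 on the control arrays. Myl4 and Tnnt2 also stand on the list of regenerating and developing fibres, so the cardiac list is not particular to the heart.

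Among 17 tested genes of the sarcomeric thin filament and its anchors, 2 were called higher and 0 lower between the eccentric and control pools, where 5.16% of 5682 genes were called higher and 1.04% lower. The list median was -0.38, beside -0.02 over all genes, and it was -0.28 without control A, -0.24 without control B, -0.27 under quantile normalization and -0.21 with the probe sets of a gene averaged. Xirp1, which binds actin at cell junctions, averaged 10653 ± 367 on eccentric arrays and 2254 ± 3.8 on control arrays, which is 4.73-fold. Pdlim3, a PDZ-LIM protein of the Z-disc, was 2.01-fold higher, a call that ended without control A (log2 difference 0.86) or eccentric B (0.99), or with arrays scaled to equal medians (0.98). Tpm2, a tropomyosin that lies along the thin filament, averaged 10353 ± 19.8 on eccentric arrays and 15382 ± 1033 on control arrays, and Cfl2, the cofilin of muscle, averaged 2909 ± 237 on eccentric arrays and 3921 ± 730 on control arrays. Neither was called. Adult fibre markers had a median of -0.38 over 22 tested genes with 0 called between the eccentric and control pools, which quantile normalization brought to -0.14 and leaving out control A to -0.24. Their summed signal was 435238 to 457942 on the eccentric arrays, 458987 to 638067 on the isometric arrays and 522067 to 638721 on the control arrays. Actn3, Tnnc2, Tnni2 and Tnnt3 stand on both the thin filament and the adult fibre list, so the medians of these lists are not independent.

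Between the isometric and control pools 0 of the 17 thin filament genes were called, with a median of -0.07, where 0.915% of 5571 genes were called higher and 0.305% lower. Between the eccentric and isometric pools 2 were called higher, again Xirp1 (4.62-fold) and Pdlim3 (2.19-fold, a call that ended without isometric B), and 0 lower. Over all 5623 genes in that comparison 1.71% were called higher and 0.658% lower.

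Genes of regenerating and developing fibres, a state in which Actc1 is known to be expressed, gave 3 of 17 called higher and 0 lower between the eccentric and control pools, with a median of 0.20. Over all 5682 genes tested there, 5.16% were called higher and 1.04% lower. Nes, the intermediate filament nestin, averaged 3308 ± 37.1 on eccentric arrays and 829 ± 3.5 on control arrays. Csrp3, a LIM-domain protein of striated muscle, differed by 5.74-fold, and Myog, the myogenic factor myogenin, was 2.12-fold higher, a call that ended without eccentric A (log2 difference 0.81). The embryonic myosin Myh3 lay below the floor on all 6 arrays. Chrng, the fetal acetylcholine receptor subunit, averaged 130 ± 38.0 on eccentric arrays and 142 ± 6.6 on control arrays, close to the floor, and the perinatal myosin Myh8 averaged 160 ± 57.9 on eccentric and 136 ± 18.4 on control arrays. In the isometric against control comparison 0 of 17 were called, with a median of 0.17 and 12 of 17 differences above 0. The log2 differences there were 0.89 for Myog, 0.75 for Nes and 0.51 for Csrp3, below the 2-fold rule. Between the eccentric and isometric pools 2 of 15 were called higher, Csrp3 and Nes, with a median of 0.02. Those comparisons called 0.915% and 1.71% of all tested genes higher, and 0.305% and 0.658% lower.

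Of 43 tested genes for proteins that turn over cytoplasmic actin, 11 were called higher in the eccentric pool than in the control pool and 0 lower, with a median log2 difference of 0.58 and 36 differences above 0. Of all 5682 genes tested between these pools, 5.16% were called higher and 1.04% lower. Lcp1, which bundles actin in leukocytes, averaged 1380 ± 34.9 on eccentric arrays and 448 ± 68.3 on control arrays, 3.10-fold apart. Capg, which caps filament ends and is abundant in macrophages, was 3.05-fold higher, with 1935 ± 49.4 on eccentric and 636 ± 62.6 on control arrays. Tmsb10, a thymosin that binds actin monomers, was 2.88-fold higher, with 4270 ± 187 on eccentric and 1485 ± 106 on control arrays. Lcp1, Capg and Tmsb10 kept their calls with each array of both pools left out, while leaving out 1 array ended the calls of Actr3 and Marcks (control A) and of Cfl1 and Ezr (eccentric A or control B). Tmsb4x, the related thymosin, averaged 9550 ± 34.9 on eccentric arrays and 5477 ± 346 on control arrays, and Pfn1, which delivers actin monomers to growing ends, averaged 405 ± 32.4 on eccentric and 378 ± 135 on control arrays, and neither was called. Macrophage markers were called higher in 15 of 21, with a median of 1.39, and in 9 with a median of 0.93 when the probe sets of a gene were averaged. Cd68, a lysosomal protein of macrophages, averaged 2336 ± 32.0 on eccentric and 645 ± 106 on control arrays, and the chemokine receptor Ccr2 averaged 1877 ± 37.6 on eccentric and 384 ± 47.4 on control arrays. Some of the actin regulators, such as Lcp1, Coro1a and Was, are themselves typical of leukocytes.

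In the isometric against control comparison 0 of 41 actin regulators were called, with a median of 0.21 and 33 above 0, and 4 of 19 macrophage markers were called higher, which became 2 without isometric B and 1 when the probe sets of a gene were averaged. Between the eccentric and isometric pools 2 of 43 were called higher, Was and Cotl1, with a median of 0.37. Across all tested genes, 0.915% were called higher and 0.305% lower between the isometric and control pools. Between the eccentric and isometric pools these shares were 1.71% and 0.658%. Was, a promoter of actin branching in blood cells, averaged 294 ± 43.1 on eccentric and 51.3 ± 3.5 on isometric arrays, and the isometric value lies under the floor. Cotl1, a coactosin that binds filaments, averaged 305 ± 16.8 on eccentric and 112 ± 52.9 on isometric arrays, with 1 of the 2 isometric arrays above the floor.

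The list of chaperonin and prefoldin subunits that fold new actin, which also held Pdcl3 and Unc45a, had 0 of 14 called in each of the 3 comparisons. Its medians were 0.14 for eccentric against control, 0.06 for isometric against control and 0.18 for eccentric against isometric. With arrays left out the medians for isometric against control ran from -0.03 to 0.07 and those for eccentric against isometric from 0.08 to 0.16. Targets and cofactors of SRF outside the actins had 2 of 18 called higher between the eccentric and control pools, Ankrd1 at 8.21-fold and Junb at 2.67-fold, with a median of 0.13 (0.05 without control B and 0.08 without eccentric B). The call of Junb ended without control A, at a log2 difference of 0.83. Over all tested genes, 5.16% were called higher and 1.04% lower between the eccentric and control pools. The shares were 0.915% and 0.305% for isometric against control, and 1.71% and 0.658% for eccentric against isometric. Between the isometric and control pools 3 of 17 were called higher, Junb, Egr2 and Fos, with a median of 0.43 (0.19 without control B and 0.29 with the probe sets of a gene averaged), and between the eccentric and isometric pools Ankrd1 was called higher, with a list median of -0.23.

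The genes whose profile over the 6 arrays lay nearest to that of Actc1 on its _f_at probe set, by Euclidean distance between log2 signals centred on their own means among 4839 other genes above the floor on all arrays, were Nrep, Gpd1, Itm2a, Smyd2 and Ucp3. Their distances were 0.31 to 0.56. Nrep, a small protein named for nerve regeneration, had 1057 and 1019 on the eccentric arrays, 2984 and 3307 on the isometric arrays and 2855 and 2343 on the control arrays. Gpd1, the cytosolic glycerol-3-phosphate dehydrogenase, averaged 1575 in the eccentric pool, 4095 in the isometric pool and 3592 in the control pool. The membrane protein Itm2a averaged 827 on eccentric, 2211 on isometric and 2008 on control arrays. The lysine methyltransferase Smyd2 averaged 1251 on eccentric, 2675 on isometric and 2698 on control arrays, and the mitochondrial uncoupling protein Ucp3 averaged 707 on eccentric, 1495 on isometric and 1336 on control arrays. All 5 were lowest on the eccentric arrays, which the choice by likeness fixes.

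**Figure D4:**
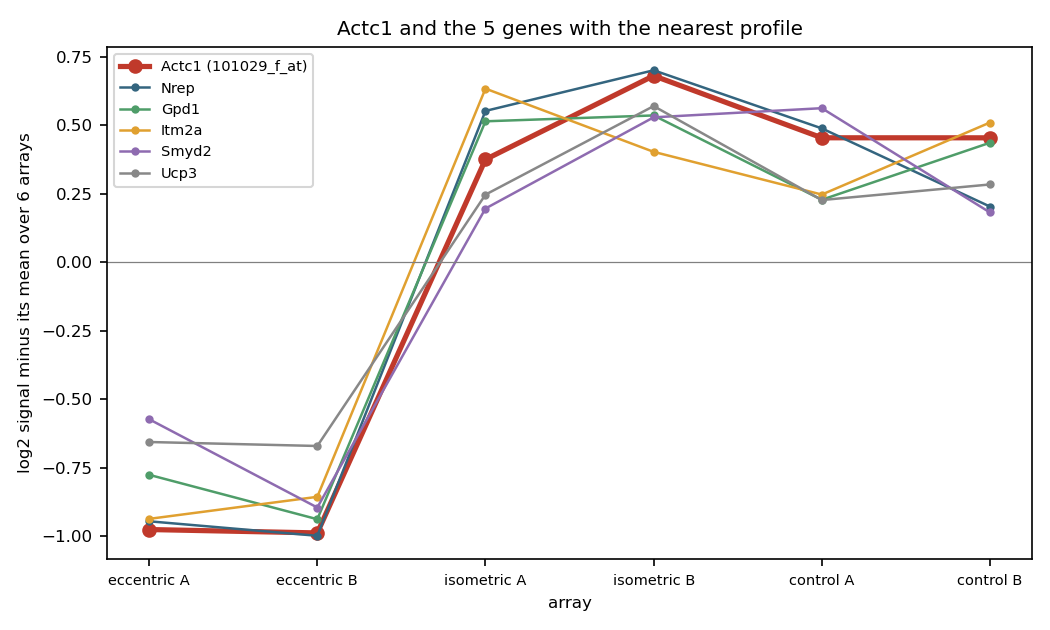
Log2 signal minus its own mean over the 6 arrays (vertical axis) for Actc1 (thick line) and the 5 genes with the nearest profile, by array (horizontal axis). All lie below their mean on both eccentric arrays and above it on the other 4 arrays.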

How the data were processed

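Pooled RNA of mouse tibialis anterior was measured on 6 Affymetrix MGU74Av2 arrays, 2 for each of 3 pools of 4 animals, per the labels. The authors deposited 1 linear intensity for each of 12488 probe sets and array. How probe signals were background corrected and summarised, and in which software, was not given in the sources used here. The nearly equal trimmed means (2% removed at each end) of the deposited intensities would follow from scaling of each array to a common value, and such scaling hides any change common to most genes.

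From these intensities each array was rescaled to the average trimmed mean, values were floored at the 40th percentile (a signal of 120.8), and log2 was taken. Genes came from the platform annotation, which gave 1 gene for 10833 probe sets, several for 396 and none for 1193, and 66 were Affymetrix controls. A probe set was tested when both arrays of 1 or both compared pools exceeded the floor, and genes in lists were read from their brightest probe set by mean log2 signal. Simulated arrays with known changes, all larger than 2-fold and in probe sets well above the floor, were used to try the 2-fold rule. Their noise came from arrays of the same pool. They cannot speak for differences near 2-fold, for dim probe sets or for the spread between animals. Values are means ± SD over 2 arrays of 1 pool, and the number of arrays limits their precision. The members, the gene lists and the rules were chosen with earlier results of these data known. Named genes were all actins, the 5 nearest profiles to Actc1, up to 3 called genes per list and direction, and 12 preset genes, of which Srf and Neb were not analysed here. Genes named beside these (Ckm, Myl4, Myl7, Tnnt2, Myh6, Tpm2, and Actr3, Marcks, Ezr and Coro1a among actin regulators) were chosen after their values were seen. Des, Pdcl3, Unc45a, Actn3, Tnnc2, Tnni2 and Tnnt3 were named only to describe the lists that hold them. Promoters came from RefSeq on GRCm38.p6. Alternatives changed the floor, scaling, filter, fold threshold, array pairing and probe set choice, and left out arrays. Tables were computed in pandas 2.3.3 and numpy 2.4.6, trimmed means in scipy 1.17.1 and figures in matplotlib 3.10.9, under Python 3.11.15.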

Additional observations from a re-analysis of the deposited data

Results flagged for a closer look

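Actg2 had opposite signs in the exercised pools, with a log2 difference from the control pool of -0.18 after eccentric and 0.18 after isometric contractions, each with the same sign in all 4 array pairings. The isometric pairings ran from 0.02 to 0.34, the 2 isometric arrays differed by 0.23, and without isometric A the value was 0.06. The only Actg2 probe set has the suffix _f_at, and the share of its signal from other actins was not tested. The eccentric pool lay below the isometric pool by a log2 difference of -0.36, with the same sign in all 4 pairings, which did not pass the 2-fold rule, and with 1 RNA pool a group the difference has no test over animals.

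The Affymetrix control probe sets of beta-actin, which were left out of the family, were brighter on both eccentric arrays than on both control arrays in the middle (log2 difference 0.49) and at the 3′ end (0.28) of the transcript. At the 5′ end the difference was -0.13 and the pools overlapped. The share of the signal of these controls that comes from other actins was not tested.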

How the results depend on the processing

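The 2 Actc1 probe sets stayed lower in the eccentric pool, past 2-fold, against the control and the isometric pool under all 14 alternatives run for each. Of these, only the scaling settings and the left-out arrays could change the Actc1 differences. The settings of floor, filter, fold threshold, array pairing and probe set choice leave values this far above the floor as they were. For the _f_at probe set the range was -1.46 to -1.24 against the control pool and -1.66 to -1.36 against the isometric pool. No actin difference that passed the 2-fold rule changed sign. A 1.5-fold threshold gave 4 called actin probe sets for eccentric against control, adding both of Actb, and 1 for isometric against control, the _s_at set of Actb. Called list genes, of which there were 37 (eccentric against control), 7 (isometric against control) and 16 (eccentric against isometric), became 67, 26 and 51 with that threshold. The 7 became 13 with no floor, 12 with a floor at the 20th percentile and 3 with the mean over the probe sets of a gene. Over all probe sets the counts of 447, 97 and 166 became 1543, 1017 and 1014 with no floor, 868, 418 and 475 with a floor at the 20th percentile, 227, 31 and 82 at the 60th, and 1465, 491 and 925 at 1.5-fold. Over genes the 352, 68 and 133 became 939, 537 and 586, then 621, 268 and 342, then 188, 22 and 68, and 1105, 345 and 709, and the 68 became 45 with the mean over probe sets. For isometric against control 178 to 280 probe sets were called without isometric A, isometric B, control B or both control A and isometric B, and for eccentric against isometric 261 to 278 without an isometric array, where 1 array left in a pool has fewer pairings to satisfy. With the array letter as a replicate block the counts were 447, 97 and 167, and no call of an actin changed. The letters do not pair the arrays: the A minus B differences of 2 pools correlated across probe sets at 0.03, -0.10 and -0.04.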

Other observations

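Of 22 tested genes of fibroblasts and matrix, 4 were called higher in the eccentric than in the control pool and 0 lower, with a median log2 difference of 0.41. Among all tested genes 5.16% were called higher and 1.04% lower in that comparison. The shares were 0.915% and 0.305% for isometric against control, and 1.71% and 0.658% for eccentric against isometric. Mfap5, a microfibril protein, averaged 1248 ± 61.2 on eccentric and 586 ± 151 on control arrays, and the proteoglycan Bgn averaged 5021 ± 372 on eccentric and 2429 ± 475 on control arrays. Thy1, a surface protein of fibroblasts, averaged 503 ± 25.6 on eccentric and 245 ± 0.92 on control arrays. Leaving out 1 array ended each of these 3 calls, control A for Mfap5, eccentric A or control B for Bgn and eccentric A for Thy1, and 0 of the 22 were called between the isometric and control pools (median 0.35, and 0.19 to 0.32 with arrays left out, lowest without both control A and isometric B). Of 12 endothelial markers 0 were called in each of the 3 comparisons, with medians of 0.03, -0.01 and 0.07 for eccentric against control, isometric against control and eccentric against isometric, and with arrays left out each of these medians took both signs.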
